A study of Homo sapiens with 9 samples.

Results

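The genes described here are 10 chaperones and co-chaperones of the cytosol whose transcription is controlled by heat shock factor 1 (HSF1): HSPA8, HSPA1A, HSPA1B, HSPH1, DNAJA1, DNAJB1, HSP90AA1, HSP90AB1, HSPB1 and BAG3. They were taken by gene name from a count table of 58735 genes, and all 10 were among the 15555 genes with enough reads to be tested. The cells were VCaP, an established human prostate cancer line that carries the androgen receptor and the TMPRSS2-ERG fusion, grown in medium with 10% fetal bovine serum and 2 nM dihydrotestosterone. The study compared 3 groups of 3 libraries each: cells transfected with a control siRNA (siCtrl) and cells transfected with either of 2 siRNAs against CDO1 (siCDO1A and siCDO1C). CDO1 encodes cysteine dioxygenase, which oxidises cysteine to cysteine sulfinic acid. All 9 libraries come from 1 cell line, and all 9 cultures were transfected and kept in the androgen. The labels name the libraries biological replicates and give each replicate number as a batch, without saying how the cultures were separated, so the p-values measure the spread between these libraries.

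HSF1 is held inactive in unstressed cells by the chaperones it controls, and it is released when unfolded proteins in the cytosol occupy them. It then binds as a trimer to heat shock elements, short inverted repeats of the bases GAA and TTC, and raises transcription of HSP70, HSP90, HSP40 and small heat shock protein genes. Chaperones of the endoplasmic reticulum (ER), such as HSPA5 and HSP90B1, answer instead to the unfolded protein response, so the 2 families report on protein folding in different compartments.

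The sequences that link these genes to HSF1 are shown first, with the members whose windows hold an exact match of 3 repeats. The search was for exact letters and spacing, so a looser element would be missed. RefSeq (GRCh38.p14) gave 15 promoter windows for the 10 genes, each from 250 bases before to 50 bases after a start site. A match of 3 repeats (GAA, TTC and GAA, or TTC, GAA and TTC, with 2 bases of any kind between neighbours, each the reverse complement of the other) was found in the windows of 4 genes, HSPA8, HSP90AB1, HSP90AA1 and DNAJA1, and in 0.49% of all 35116 windows. The matches are printed 5′ to 3′ on the strand of the gene, with the element in capitals.
HSPA8, chr11:123062346-123062374, minus strand: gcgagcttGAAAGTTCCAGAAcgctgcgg
HSPA8, chr11:123062171-123062199, minus strand: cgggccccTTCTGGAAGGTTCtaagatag
HSP90AB1, chr6:44247770-44247798, plus strand: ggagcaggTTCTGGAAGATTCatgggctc
HSP90AB1, chr6:44247823-44247851, plus strand: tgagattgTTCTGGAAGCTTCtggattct
HSP90AA1, chr14:102087112-102087140, minus strand: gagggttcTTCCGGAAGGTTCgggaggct
DNAJA1, chr9:33025268-33025296, plus strand: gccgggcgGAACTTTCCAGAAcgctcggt

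The HSPA8 elements began at -230 and -55 from the start site of their window, and that of DNAJA1 at +4. Those of HSP90AB1 began at -165 and -112 in 1 of its 3 windows, and that of HSP90AA1 at -88 in 1 of its 2 windows. The other windows of HSP90AB1 and HSP90AA1, which belong to other start sites, held no 3-repeat match. A match of 2 repeats, GAANNTTC, which reads the same on both strands and also lies inside each 3-repeat match, was found for 8 of the 10 genes and in 6.77% of all windows. HSPA1A and HSPA1B carried it in nearly the same surroundings, at -106 and -105. DNAJB1 carried it at -77 and -47 in 1 window and at +2 in the window of another start site.
HSPA1A, chr6:31815429-31815452, plus strand: aaaccctgGAATATTCccgacctg
HSPA1B, chr6:31827625-31827648, plus strand: aacccctgGAATATTCccgacctg
DNAJB1, chr19:14518459-14518482, minus strand: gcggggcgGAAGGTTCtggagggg
DNAJB1, chr19:14518429-14518452, minus strand: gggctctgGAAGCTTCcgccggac
DNAJB1, chr19:14517921-14517944, minus strand: ctcggccaGAAGCTTCtagcatgt

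Neither GAANNTTC nor the opposite arrangement TTCNNGAA was found in the windows of HSPH1 and BAG3, which says only that these letters are not in these windows. The exact letters TATAAA, searched on both strands, were found among the members only for HSPA1A and HSPA1B. They were found in 11.5% of all windows and for 13.986% of all genes. A TATA box of other letters would be missed, so the other members are not said to lack one. A match is a description of the sequence and was not tested as a binding site.

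**Figure D1:**
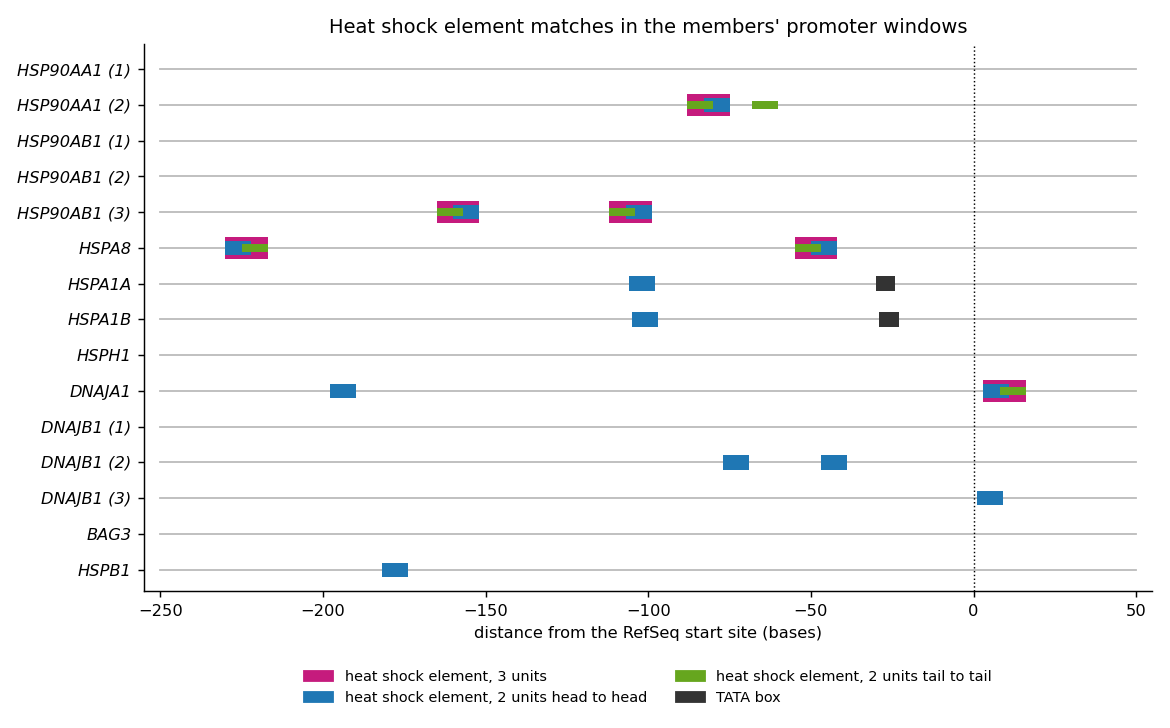
Position of heat shock element matches and TATA boxes in the 15 RefSeq promoter windows of the 10 genes; the x axis is the distance from the start site in bases, and each grey line is 1 window, numbered where a gene has several. Matches of 3 repeats (pink) lie in 1 window each of HSP90AA1, HSP90AB1, HSPA8 and DNAJA1, and HSPA1A and HSPA1B have a 2-repeat match (blue) and a TATA box (black) at nearly the same places.

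The libraries held 12061295 to 16073698 counts. The targeted gene followed the labels in all 9 libraries, although in bulk RNA fewer cells with a transcript and less RNA per cell cannot be told apart. CDO1 stood at 14.2, 14.1 and 13.7 CPM (counts scaled to library size) in siCtrl, at 3.28, 2.05 and 2.18 CPM in siCDO1A and at 1.10, 2.81 and 1.16 CPM in siCDO1C. In the quasi-likelihood test of edgeR it fell by 2.50 on the log2 scale with siCDO1A (adjusted p = 3.01e-09) and by 3.05 with siCDO1C (adjusted p = 3.9e-06). The 12 markers of the VCaP line and of luminal prostate cells were detected in every library. Of 12 markers of leukocytes, endothelium, fibroblasts and basal cells, 3 (VWF, COL1A1 and KRT14) passed the filter on low counts, COL1A1 and KRT14 rose with siCDO1A, and CD3E, CD68 and KRT5 were at 0 in all siCtrl libraries. Their summed level was 5.18 to 6.09 CPM in siCtrl, 8.46 to 9.68 CPM in siCDO1A and 6.85 to 8.29 CPM in siCDO1C, and its part in the results was not tested.

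The 10 genes covered a wide range of levels, and on the per-length scale used here their order was the same in all 9 libraries. On a per-length scale (CPM divided by the exon length of the gene in kb), the median over the 9 libraries was 823 for HSP90AB1, 404 for HSPA8, 177 for HSP90AA1 and 118 for DNAJA1. It was 28.0 for DNAJB1, 16.7 for HSPA1B, 11.6 for HSPH1, 8.97 for BAG3, 4.06 for HSPA1A and 0.602 for HSPB1. For no pair of neighbours in this order did the ranges over the 9 libraries overlap. The closest neighbours were HSPH1, with a lowest value of 11.3, and BAG3, with a highest value of 11.2. On the same scale HSP90AB1, HSPA8 and HSP90AA1 ranked 26, 62 and 155 among the 15555 genes tested, and HSPB1 ranked 13481. The first 3 together held 89.8% to 90.2% of the counts of the 10 genes. The order and the ranks rest on the exon lengths used. HSPH1 was scaled by 8390 bases and HSPA8 by 4849, while their longest annotated transcripts have 5244 and 2306. In CPM alone the median of HSPH1 (97.7) stood above that of HSPA1B (42.0).

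None of the 10 genes passed the test in the 3 comparisons. With siCDO1A, 0 of the 10 genes passed an adjusted p of 0.05 in edgeR, where 14.8% of all genes tested did. With siCDO1C, 0 of 10 passed, against 4.77% of all genes, and between the siRNAs, 0 of 10 passed, against 0.444% of all genes. At an unadjusted p under 0.05 the count was also 0 of 10 in each of the 3 comparisons, both in edgeR and in DESeq2, where 27.9%, 18.6% and 7.65% of all genes passed in edgeR and 23.2%, 14.7% and 5.62% in DESeq2. The median log2 fold change of the 10 genes was -0.016 with siCDO1A and -0.019 with siCDO1C, beside 0.010 and -0.00023 over all genes. The median size of the change, sign ignored, was 0.060 and 0.032 for the 10 genes and 0.15 and 0.14 over all genes. Such a size includes noise, which is larger at low counts, and the 10 genes were not matched to others by level. By CPM, HSP90AB1, HSPA8 and HSP90AA1 ranked 17, 31 and 88 among the genes tested, and HSPA1A and HSPB1 ranked 9932 and 14593. A difference in size from all genes is therefore not read as a trait of the 10 genes. The libraries of siCDO1A and siCtrl did not overlap for 4 of the 10 genes, 3 lower and 1 higher, beside 30.6% of all genes tested. Those of siCDO1C and siCtrl did not overlap for 1 of 10, beside 24.2% of all genes, and those of the siRNAs for 0 of 10, beside 12.7%. The comparisons with siCtrl share the siCtrl libraries, so they are not independent of each other.

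The intervals say how large a change these libraries leave room for. Leaving aside HSPA1A and HSPB1, the 95% confidence intervals of the other 8 genes lay between -0.18 (HSPH1) and 0.26 (HSPA1B) on the log2 scale with siCDO1A. With siCDO1C they lay between -0.25 (HSPA8) and 0.34 (BAG3). The interval of HSPA1A was wider, from -0.58 to 0.020 with siCDO1A and from -0.27 to 0.28 with siCDO1C. HSPB1, with 5 to 22 counts per library, had intervals of -0.81 to 0.81 and -1.49 to 0.63, and its change was not measurable at this depth.

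**Figure D2:**
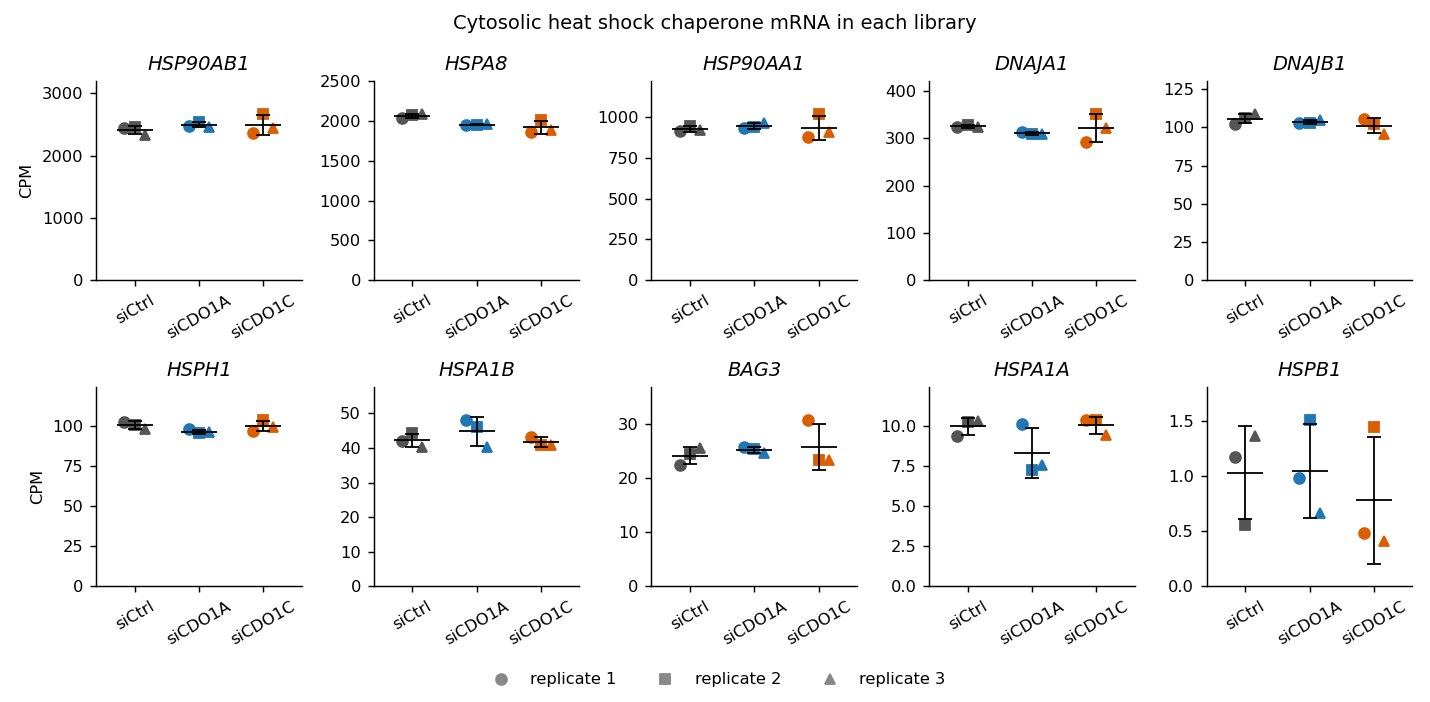
Level of each gene in each library in CPM (y axis, linear from 0), with siCtrl in grey, siCDO1A in blue and siCDO1C in orange; marker shapes are replicate numbers, and the line and bar are the mean and SD of 3 libraries. HSPA8 is the panel in which all 6 libraries with a CDO1 siRNA (1864 to 2017 CPM) lie below the 3 siCtrl libraries (2036 to 2087 CPM).

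HSPA8 encodes HSC70, the HSP70 that cells make without stress, which folds new proteins and strips clathrin from vesicles. It stood at 2036, 2079 and 2087 CPM in siCtrl, at 1946, 1953 and 1961 CPM in siCDO1A and at 1864, 2017 and 1893 CPM in siCDO1C. All 6 libraries with a CDO1 siRNA lay below all 3 siCtrl libraries, which was so for 1 of the 10 genes and for 7.35% of all genes tested. The fitted log2 fold change was -0.082 ± 0.044 (SE) with siCDO1A (edgeR, adjusted p = 0.236) and -0.11 ± 0.067 with siCDO1C (edgeR, adjusted p = 0.413). Within batches 1, 2 and 3 the log2 ratio was -0.065, -0.090 and -0.090 with siCDO1A and -0.13, -0.043 and -0.14 with siCDO1C. Their signs follow from the lack of overlap, and both sets use the same siCtrl libraries, so they add no support. Replicate 2 of siCDO1C was the highest of its group, and without that library HSPA8 passed with siCDO1C at -0.141 (edgeR, adjusted p = 0.0221), while the count over all genes went from 742 to 2068. On a linear scale the fitted change over all libraries was -5.50% with siCDO1A and -7.36% with siCDO1C.

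HSPA1A and HSPA1B encode the stress-inducible HSP70, from neighbouring genes on chromosome 6 (GRCh38, chr6:31815464-31817946 and chr6:31827735-31830255) whose proteins are nearly identical. HSPA1A stood at 9.35, 10.3 and 10.3 CPM in siCtrl, at 10.1, 7.25 and 7.53 CPM in siCDO1A and at 10.3, 10.3 and 9.41 CPM in siCDO1C. In siCDO1A, 2 libraries were lower than every other library and the third lay within the siCtrl range, so the groups overlapped. The fitted log2 fold change was -0.28 ± 0.14 with siCDO1A (edgeR, adjusted p = 0.211), 0.0013 ± 0.13 with siCDO1C (edgeR, adjusted p = 0.996) and 0.28 ± 0.16 between the siRNAs (edgeR, adjusted p = 0.756). Offsets for GC content and gene length moved the first of these past the threshold, at -0.381 (edgeR, adjusted p = 0.0405) and, with the replicate block, -0.384 (edgeR, adjusted p = 0.0388).

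HSPA1B stood at 42.0, 44.3 and 40.4 CPM in siCtrl, at 48.0, 46.2 and 40.2 CPM in siCDO1A and at 43.3, 40.9 and 40.9 CPM in siCDO1C. The 3 groups overlapped, with log2 fold changes of 0.085 ± 0.083 (edgeR, adjusted p = 0.552) and -0.023 ± 0.084 (edgeR, adjusted p = 0.923). Reads cannot always be assigned between these genes: 69.6% of the 150-base windows of the HSPA1A transcript and 70.1% of those of HSPA1B also occur in another gene, while the other 8 genes share none. Summed into 1 row, the pair changed by 0.023 with siCDO1A (edgeR, adjusted p = 0.884) and by -0.019 with siCDO1C (edgeR, adjusted p = 0.933). The treatment of reads that match several genes is not given. If they were left out, the sum does not restore them. The levels of both genes, and their share beside HSPA8, would then be too low. Of the per-length signal of the pair, HSPA1A held 19.4% ± 1.11 (SD, n = 3) in siCtrl, 15.8% ± 1.93 in siCDO1A and 19.6% ± 0.773 in siCDO1C. The siCDO1A libraries did not overlap with the siCtrl libraries in this share, which is given as a description. In two-sided exact permutation tests p was 0.1 with siCDO1A, which follows from the lack of overlap, and 0.8 with siCDO1C. The inducible pair held 4.64% ± 0.171 of the per-length signal of HSPA1A, HSPA1B and HSPA8 in siCtrl, 4.98% ± 0.481 in siCDO1A and 4.94% ± 0.299 in siCDO1C. Two-sided exact permutation tests gave p = 0.3 and 0.2, where 3 libraries against 3 cannot go below 0.1. The size of this share turns on the lengths used: HSPA8 was scaled by 4849 bases, while its longest annotated transcript has 2306.

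HSPH1 encodes HSP110, which exchanges the nucleotide of HSP70. It stood at 102, 100.3 and 97.7 CPM in siCtrl, at 97.6, 95.1 and 95.9 CPM in siCDO1A and at 96.9, 103 and 98.8 CPM in siCDO1C. The siCDO1A libraries lay just below the siCtrl libraries, and the siCDO1C libraries overlapped with them. The log2 fold changes were -0.058 ± 0.059 (edgeR, adjusted p = 0.576) and -0.014 ± 0.071 (edgeR, adjusted p = 0.943), and both changed sign with the offsets for GC content and gene length.

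The J proteins DNAJA1 and DNAJB1 bring clients to HSP70 and start its ATP hydrolysis. DNAJA1 stood at 324, 329 and 325 CPM in siCtrl, at 314, 310.5 and 309 CPM in siCDO1A and at 292, 351 and 323 CPM in siCDO1C. The siCDO1A libraries lay below the siCtrl libraries, while siCDO1C spread to both sides of them. The log2 fold changes were -0.067 ± 0.049 (edgeR, adjusted p = 0.402) and -0.024 ± 0.076 (edgeR, adjusted p = 0.908). DNAJB1, the J protein that returns HSF1 to its inactive state together with HSP70, stood at 102, 106 and 109 CPM in siCtrl, at 103, 103 and 105 CPM in siCDO1A and at 105, 102 and 95.7 CPM in siCDO1C. The 3 groups overlapped, and the log2 fold changes were -0.031 ± 0.059 (edgeR, adjusted p = 0.781) and -0.072 ± 0.073 (edgeR, adjusted p = 0.659).

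The HSP90 genes encode the chaperone that keeps steroid receptors, the androgen receptor among them, ready to bind hormone. HSP90AB1, the constitutive isoform, stood at 2439, 2453 and 2331 CPM in siCtrl, at 2477, 2536 and 2459.8 CPM in siCDO1A and at 2358, 2664 and 2438 CPM in siCDO1C. The siCDO1A libraries lay above the siCtrl libraries and siCDO1C overlapped with both. The log2 fold changes were 0.049 ± 0.045 (edgeR, adjusted p = 0.52) and 0.039 ± 0.070 (edgeR, adjusted p = 0.83). HSP90AA1, the inducible isoform, stood at 913, 946 and 921 CPM in siCtrl, at 930.0, 938 and 963 CPM in siCDO1A and at 878, 1017 and 906 CPM in siCDO1C. Its groups overlapped, with log2 fold changes of 0.026 ± 0.046 (edgeR, adjusted p = 0.761) and 0.0033 ± 0.073 (edgeR, adjusted p = 0.986). The balance between the isoforms did not separate the groups. HSP90AA1 held 17.9% ± 0.400 of their per-length signal in siCtrl, 17.7% ± 0.430 in siCDO1A and 17.6% ± 0.225 in siCDO1C (two-sided exact permutation tests, p = 0.6 and 0.2). The size of this share turns on the lengths used: HSP90AA1 was scaled by 5248 bases, while its longest annotated transcript has 3510.

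BAG3, the co-chaperone that hands HSP70 clients to autophagy, stood at 22.5, 24.4 and 25.7 CPM in siCtrl, at 25.8, 25.5 and 24.7 CPM in siCDO1A and at 30.8, 23.4 and 23.3 CPM in siCDO1C. Replicate 1 of siCDO1C was the highest of the 9 libraries and the groups overlapped. The log2 fold changes were 0.061 ± 0.089 (edgeR, adjusted p = 0.706) and 0.090 ± 0.12 (edgeR, adjusted p = 0.75), and without that library the second was -0.0511. HSPB1, the small heat shock protein HSP27, was close to the limit of detection. It had 15, 7 and 22 counts in siCtrl, 12, 22 and 10 in siCDO1A and 7, 19 and 5 in siCDO1C, or 0.413 to 1.51 CPM, where 3 counts are worth 0.186 to 0.248 CPM on the same scale. The groups overlapped, with log2 fold changes of -0.0017 ± 0.39 (edgeR, adjusted p = 0.999) and -0.43 ± 0.50 (edgeR, adjusted p = 0.704).

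**Figure D3:**
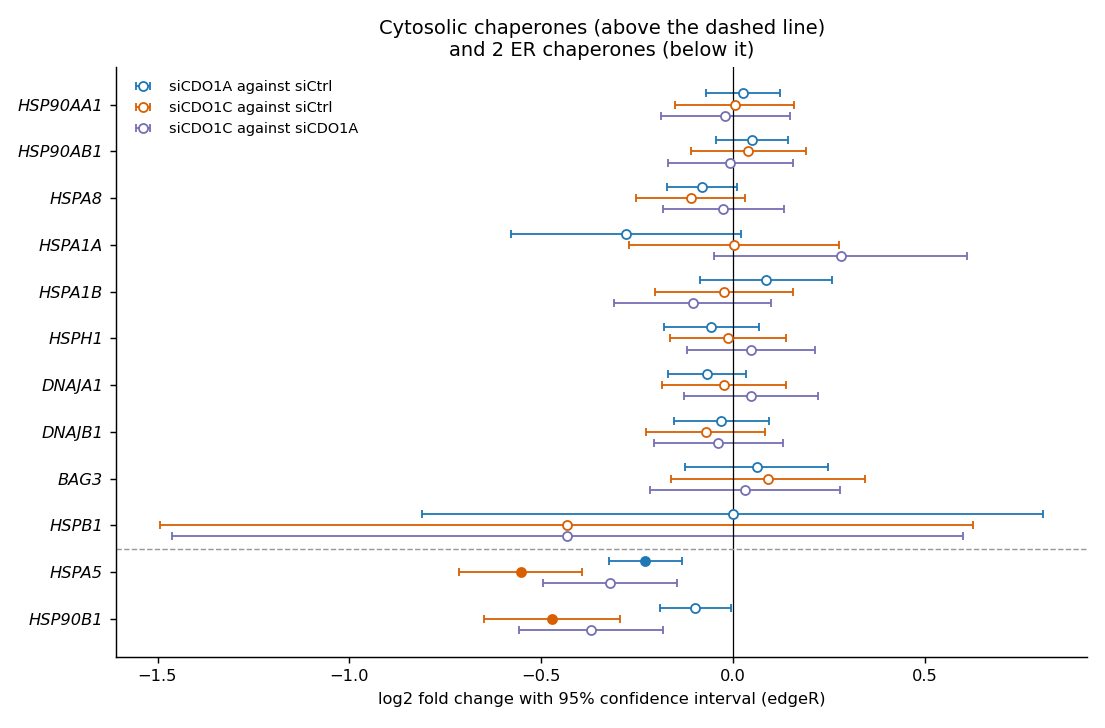
Log2 fold change (x axis) with its 95% confidence interval from edgeR for the 10 cytosolic genes and, below the dashed line, the ER chaperones HSPA5 and HSP90B1; filled points pass an adjusted p of 0.05. The intervals of all 10 cytosolic genes include 0 in the 3 comparisons, while HSPA5 passed with both siRNAs and HSP90B1 with siCDO1C.

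Summed over the 10 genes, the level was 5947 to 6093 CPM in siCtrl, 5953 to 6016 CPM in siCDO1A and 5679, 6331 and 5827 CPM in the 3 siCDO1C libraries. The siCDO1C libraries lay on both sides of all others, with replicate 2 the highest and replicate 1 the lowest of the 9. Across the 9 libraries the members did not move as 1 group: 28 of their 45 pairs had a positive correlation, with a median Pearson r of 0.13 and a range from -0.748 to 0.823. The genes whose log2 CPM followed the mean pattern of the members most closely, among 11328 genes, were PSPHP1 (r = 0.964), RPL15 (r = 0.960) and SELENOK (r = 0.958). These correlations are over 9 libraries that share their normalisation, and they are given as a description.

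The chaperones of the ER fell in part of their list. Of 28 ER chaperones, all of them tested, 9 fell and 1 rose with siCDO1A, where 7.48% of all genes fell, and the median log2 fold change was -0.098. With siCDO1C, 14 fell and 1 rose, where 2.5% of all genes fell, and the median was -0.33. HSPA5 (BiP), the HSP70 of the ER, stood at 1582, 1595 and 1609 CPM in siCtrl, at 1396, 1369 and 1317 CPM in siCDO1A and at 1008, 1207 and 1064 CPM in siCDO1C. The 3 groups did not overlap, and HSPA5 fell by 0.23 with siCDO1A (edgeR, adjusted p = 0.00173) and by 0.55 with siCDO1C (edgeR, adjusted p = 0.000664). HSP90B1 (GRP94), the HSP90 of the ER, changed by -0.10 with siCDO1A, which did not pass (edgeR, adjusted p = 0.146), and fell by 0.47 with siCDO1C (edgeR, adjusted p = 0.00396). The ER J protein DNAJC3 fell by 0.53 and 0.54 on the log2 scale, DNAJB9 by 0.74 and 0.53 and the disulfide isomerase PDIA6 by 0.43 and 0.48, with siCDO1A and siCDO1C in that order. SEC63, a J protein of the translocon, rose by 0.46 and 0.41.

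The count of ER chaperones lower with siCDO1C depended on single libraries. It was 7, 8 and 9 without siCtrl replicates 1, 2 and 3 in turn, 7 without siCDO1C replicate 1, and 20 and 15 without siCDO1C replicates 2 and 3. This dependence was not particular to the ER genes. With libraries left out, the count over all genes ranged from 263 to 2068 with siCDO1C, beside 742 in the main fit. Between the siRNAs it ranged from 18 to 447, beside 69. Between the siRNAs the count lower depended on the fit: 0 of the 28 without the replicate block, 4 with it, 5 in 1 edgeR fit of all 9 libraries and 10 without siCDO1C replicate 2. The difference between the 10 cytosolic genes and the 28 ER genes was described by these counts and medians and was not tested as such.

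**Figure D4:**
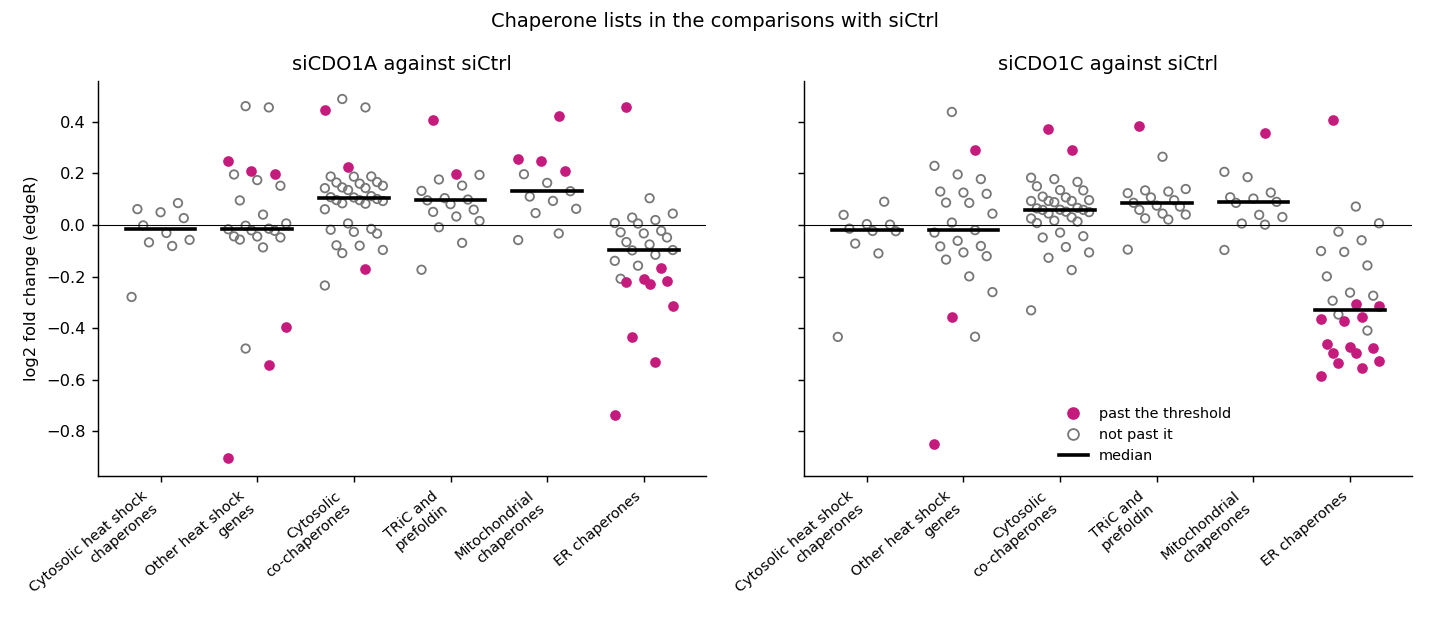
Log2 fold change (y axis, edgeR) of each tested gene of 6 chaperone lists with siCDO1A (left) and siCDO1C (right) against siCtrl; filled points pass an adjusted p of 0.05 and the black line is the median of the list. The 10 cytosolic heat shock chaperones hold no filled point, with medians of -0.016 and -0.019, beside ER chaperone medians of -0.098 and -0.33.

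Set against their partners of the cytosol inside each library, the ER genes gave the following ratios. They were chosen after the values were seen and are given as a description. The per-length ratio of HSPA5 to HSPA8 was 0.958 ± 0.00631 (SD, n = 3) in siCtrl, 0.864 ± 0.0287 in siCDO1A and 0.703 ± 0.0361 in siCDO1C. The ratio of HSP90B1 to HSP90AB1 was 0.545 ± 0.0153, 0.492 ± 0.00755 and 0.381 ± 0.0236 in the same order. For both ratios the 3 groups did not overlap. Exact permutation tests against siCtrl (two-sided) gave p = 0.1 for each siRNA, the smallest that 3 libraries against 3 allow. This follows from the lack of overlap and adds no support. The size of the ratios turns on the exon lengths used, such as 4849 bases for HSPA8, while the order of the libraries does not. A ratio within a library shows unequal change and does not say that either gene stayed level.

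**Figure D5:**
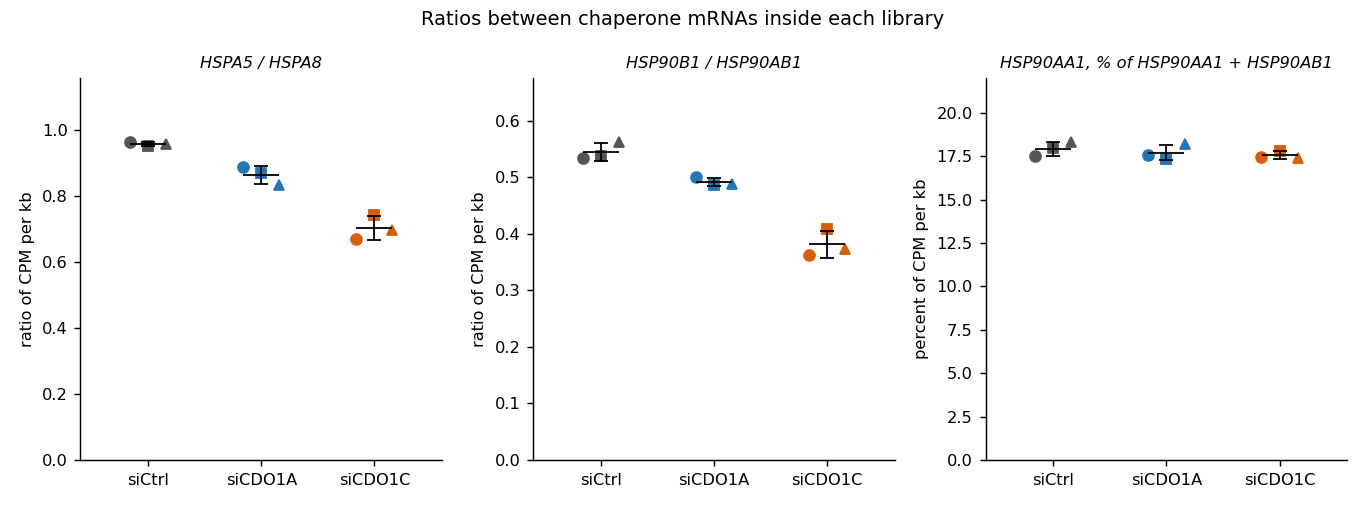
Ratio of CPM per kb between ER and cytosolic partners (left and middle) and HSP90AA1 as a percent of both HSP90 isoforms of the cytosol (right) in each library, axes from 0; marker shapes are replicate numbers, and the line and bar are the mean and SD of 3 libraries. HSPA5 to HSPA8 steps down from 0.958 in siCtrl to 0.864 and 0.703, while the HSP90AA1 share stays between 17.4% and 18.3%.

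Among other genes linked to the heat shock response, in the cytosol and in other compartments, a minority changed. HSF1 itself stood at 98.7, 101 and 109.9 CPM in siCtrl, at 105, 102 and 98.3 CPM in siCDO1A and at 97.3, 102 and 94.6 CPM in siCDO1C, with log2 fold changes of -0.021 (edgeR, adjusted p = 0.864) and -0.083 (edgeR, adjusted p = 0.609). Of 30 other genes linked to the heat shock response, 25 were tested. This list is not confined to the cytosol: HSPD1 and HSPE1 also stand in the list of mitochondrial chaperones and SERPINH1 in that of the ER. With siCDO1A 3 rose and 3 fell, where 7.37% and 7.48% of all genes did, and with siCDO1C 1 rose and 2 fell, where 2.27% and 2.5% did. HSPB8, the small heat shock protein that works with BAG3, fell by 0.90 and 0.85 on the log2 scale, from 6.26 ± 0.762 CPM in siCtrl to 3.33 ± 0.405 and 3.53 ± 0.755 CPM. CLU, the secreted chaperone clusterin, fell by 0.40 and 0.36 on the log2 scale. HSPD1, the HSP60 of mitochondria, rose by 0.21 with siCDO1A and had a value of 0.086 with siCDO1C, and DNAJB4 fell by 0.54 with siCDO1A and had a value of -0.26 with siCDO1C. HSPA6, HSPB2, HSPB6, CRYAB and HMOX1 had too few counts to be tested. HSPA6, an HSP70 gene made mainly under stress, had 5, 3 and 3 counts in siCtrl and 0 or 1 count in each of the other 6 libraries.

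Of 36 co-chaperones of the cytosol, 2 rose and 1 fell with siCDO1A and 2 rose with siCDO1C, with medians of 0.10 and 0.059. That is 8.33% of the list with siCDO1A, where 14.8% of all genes tested passed, and 5.56% with siCDO1C, where 4.77% did. SGTA, which guards exposed membrane segments in the cytosol, rose by 0.44 and 0.37. The HSP90 partner FKBP4 fell by 0.17 with siCDO1A and had a value of -0.17 with siCDO1C, TOMM34 rose by 0.22 with siCDO1A and had a value of 0.11, and CHORDC1 rose by 0.29 with siCDO1C and had a value of 0.15 with siCDO1A. A list of 17 genes held the chaperonin TRiC and prefoldin, which fold actin and tubulin, and also PDCD5, PDCL3 and TXNDC9. Of the 17, 2 rose with siCDO1A and 1 with siCDO1C. That is 11.8% and 5.88% of the list beside the same 14.8% and 4.77% of all genes. CCT8 rose by 0.41 and 0.38 and TCP1 by 0.20 with siCDO1A, with a value of 0.13 for TCP1 with siCDO1C. The lists share genes: TCP1, CHORDC1, HSPD1 and 4 others each stand in 2 of them.

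The same element marks genes beyond the members. Of the genes whose RefSeq windows hold a 3-repeat element, 55 were tested, 4 of them members. With siCDO1A 4 rose and 3 fell, or 12.7% against 14.8% of all genes, and with siCDO1C 2 rose and 1 fell, or 5.45% against 4.77%. With the 4 members left out, the shares of the remaining 51 genes were 13.7% and 5.88%. The median over the 55 genes was 0.0087 on the log2 scale for siCDO1A and -0.017 for siCDO1C.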

How the data were processed

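Poly(A) RNA of VCaP cells was sequenced by the authors as paired 150-base Illumina reads of directional libraries. The submitters' processing notes name CASAVA, HISAT2 2.0.5 and the build hg38, and the authors counted reads per gene with featureCounts. The treatment of reads that match several genes is not given in the sources used here. The deposited values are raw counts, 1 column per library, and 3 columns that match no sample were not used.

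Counts were analysed with edgeR 4.0.16 in R 4.3.3. Genes passed filterByExpr (minimum count 10), libraries were scaled by TMM, and each comparison was fitted on its 6 libraries with the robust quasi-likelihood test, adjusted by Benjamini-Hochberg over 15555 genes and called at an adjusted p of 0.05. CPM are scaled by TMM to the counts of the genes tested. DESeq2 1.42.0 was an alternative. The scripts were tested on simulated data. 

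The labels give the replicate number as a batch, and a pairing of equal numbers rests on the labels alone. Deviations of same-numbered libraries correlated from -0.37 to 0.37 over 11337 genes. They ranged from -0.37 to -0.088 for siCDO1A and siCtrl and from -0.27 to 0.051 for siCDO1C and siCtrl. These values do not show a shift shared by same-numbered libraries of a CDO1 siRNA and siCtrl. With the replicate block, 0 members were called in each comparison.

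The members and lists were chosen with earlier results of these data known, and the fall of ER chaperones is not independent support. Named genes are all members, CDO1, HSF1, HSPA5, HSP90B1 and, per list, up to 4 genes called with both siRNAs, or else with 1. HSPA6 and the other untested genes, the markers at 0 and the within-library ratios were added after values were seen. Markers, immediate early genes and mitochondrial chaperones were further lists. Alternatives covered the tool, scaling, filters, threshold, GC content and length offsets, the replicate block and each library left out.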

Additional observations from a re-analysis of the deposited data

How the results depend on the processing

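The count of members called stayed at 0 under all alternatives except 3. It was 1 with siCDO1A under offsets for GC content and gene length and 1 when the replicate block was added to them (HSPA1A both times), and it ranged from 0 to 1 with siCDO1C when each library was left out in turn (HSPA8, without siCDO1C replicate 2). The range was 0 to 0 for the other comparisons. With the replicate block alone the count was 0 in the 3 comparisons, and no call of a member changed. CDO1 kept its direction and its side of the threshold in 57 fits, counted over the 3 comparisons together. Between the siRNAs that side was not called (edgeR, adjusted p = 0.826). The fit that asked for 10 counts in every library tested 9 members, without HSPB1.

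The ER alternatives were chosen after seeing the data. The count of ER chaperones lower with siCDO1C was 9 at an adjusted p of 0.01 and ranged from 7 to 20 with libraries left out. With siCDO1A it ranged from 6 to 11. Between the siRNAs it was 4 in DESeq2 on 6 libraries, 6 in DESeq2 on 9, 5 in 1 edgeR fit of all 9 libraries, 4 without a filter, 4 with the replicate block, 3 with the offsets and 8 with the offsets and the block, and it ranged from 0 to 10 with libraries left out. The cause was not tested.

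Several uncalled members changed sign near 0. For siCDO1A against siCtrl, HSPB1 was 0.00892 and 0.00878 in DESeq2 on 6 and 9 libraries, 0.000264 in 1 edgeR fit and 0.00462 without a filter. With the offsets, and with the offsets and the block, HSPA1B was -0.00887 and -0.0109, HSPH1 0.00477 and 0.00463 and BAG3 -0.0068 and -0.00559. For siCDO1C against siCtrl the same fits gave HSPA1A -0.0486 and -0.0508 and HSPH1 0.0098 and 0.00847. Between the siRNAs HSP90AB1 was 0.00146 without a filter and 0.00367 and 0.003 with the offsets. With libraries left out, HSPB1 ranged from -0.373 to 0.273 with siCDO1A. With siCDO1C, HSPA1A ranged from -0.0351 to 0.043, HSPH1 from -0.0367 to 0.013, HSPA1B from -0.0569 to 0.0121, HSP90AA1 from -0.0591 to 0.0534, HSP90AB1 from -0.00943 to 0.0833, DNAJA1 from -0.0882 to 0.049 and BAG3 from -0.0511 to 0.162. Between the siRNAs HSP90AB1 ranged from -0.0582 to 0.0288, HSP90AA1 from -0.0851 to 0.0217, BAG3 from -0.119 to 0.101 and DNAJA1 from -0.0199 to 0.111.

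Counts over all genes moved more. With siCDO1A 2309 genes passed, and 1358 with the replicate block, 1369 in 1 edgeR fit of all libraries, 1380 in DESeq2 on 9 libraries, 1107 at an adjusted p of 0.01, 3330 with the offsets and 1292 to 3454 with libraries left out. With siCDO1C 742 passed, and 282 at 0.01, 1420 with the offsets, 1293 with the offsets and the block and 263 to 2068 with libraries left out. Between the siRNAs 69 passed, and 24 at 0.01, 104 and 187 in DESeq2 on 6 and 9 libraries, 128 in 1 edgeR fit, 153 without a filter, 121 with the block, 175 with the offsets, 282 with both and 18 to 447 with libraries left out. Fits that leave a group with 2 libraries rest on few samples, and HSPB1 is limited by its 5 to 22 counts per library.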

Other observations

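Some chaperones of mitochondria rose. Of 13 mitochondrial chaperones and proteases, 4 rose with siCDO1A and 1 with siCDO1C, and none fell, with medians of 0.13 and 0.090 on the log2 scale. Of all genes tested, 7.37% rose with siCDO1A and 2.27% with siCDO1C. The protease subunit CLPP rose by 0.42 and 0.36. HSPD1 and its partner HSPE1 rose by 0.21 and 0.25 with siCDO1A and had values of 0.086 and 0.13 with siCDO1C, and the protease LONP1 rose by 0.25 and had a value of 0.11.

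Of 13 immediate early genes, which respond to stress and handling within minutes, 11 were tested. With siCDO1A 2 fell, where 7.48% of all genes did, and with siCDO1C 1 fell, where 2.5% did. ATF3, a transcription factor of the stress response, fell by 0.74 and 1.12 on the log2 scale, and ZFP36 fell by 0.50 with siCDO1A and had a value of -0.25 with siCDO1C. Of the 12 VCaP and luminal markers, 3 rose and 2 fell with siCDO1A and 1 rose and 1 fell with siCDO1C. That is 41.7% and 16.7% of the list, beside 14.8% and 4.77% of all genes tested.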
